A study of Mus musculus with 75 samples.

Results

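Nascent hair cells (HCs) were compared with wild-type supporting cells (SCs) of the adult mouse cochlea in a single-cell RNA-Seq series of 75 cells in 5 groups. All cells that the submitters named nascent cells (16) and all cells that they named P60 wild-type SCs (16) were taken, and the compared cells make up 32 of the 75. Nascent HCs were Tdtomato+ cells at P60 from Fgfr3-Atoh1-Ikzf2-DTR mice, which carry Fgfr3-iCreER+, CAG-LSL-Atoh1+, the Rosa26 CAG-LSL-Ikzf2/+ allele with HA-tagged Ikzf2 and Tdtomato, and Slc26a5 DTR/+. These mice received tamoxifen at P30 and P31, which starts Atoh1 and Ikzf2 in cells with Cre, and at P36 diphtheria toxin (DT) at 20 ng/g, which kills outer hair cells (OHCs) through the DTR allele. WT_P60 SCs were Tdtomato+ cells of Fgfr3-iCreER+; Ai9/+ mice of the same age that received tamoxifen on the same days and no DT. Both groups were on a C57BL/6 background and shared the Fgfr3-iCreER driver, which in the adult organ of Corti labels mainly pillar cells and Deiters cells. The authors assigned the cells from Myo7a, which nascent HCs have, and Prestin (Slc26a5), which they lack, so these genes are given as a description, and genes that vary together with them are not independent of the choice. Transgenes, DT, the loss of OHCs and the library series all coincide with the group, so their parts in any difference cannot be told apart. WT_P30 OHCs, given beside them, were Tdtomato+ cells of Slc26a5 CreER/+; Ai9/+ mice at P30. Those mice received tamoxifen at P20 and P21 and no DT, and their cells formed a library series of their own. Values of WT_P30 OHCs thus also differ by genotype, age, treatment days and series. OHC-like cells and SCs that failed to become HCs had the genotype, age and treatment of nascent HCs.

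HCs turn the deflection of their stereocilia into a receptor current and pass it on at ribbon synapses, whereas pillar cells and Deiters cells hold HCs in place, couple to each other through gap junctions and buffer ions. Atoh1 is the basic helix-loop-helix factor that starts HC fate in the embryo, and Ikzf2 is a zinc finger factor of OHC maturation. During development, new HCs present Notch ligands to their neighbours, and Notch effectors of the Hes and Hey families hold those neighbours in the SC fate.

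Each cell was picked by hand and its full-length cDNA was amplified without molecular identifiers, so a count is a read. The total count per cell lay between 7443598 and 22934062 in nascent HCs (median 11377686) and between 5576508 and 8355421 in WT_P60 SCs (median 7032280). Levels are given as CPM, the counts of a gene relative to the library size scaled by TMM, and a gene was detected in a cell at 1 CPM or more. Nascent HCs came from 5 series of consecutive library numbers and all WT_P60 SCs from 1 other series. The number of mice behind a group is not named, so p-values measure the spread between cells. Among the markers of hair cells, Myo7a, Espn and Atoh1 were detected in 16 of 16 nascent HCs, Gfi1 in 10 and Pou4f3 in 2, and Myo7a, Pou4f3, Gfi1 and Espn had no count in any WT_P60 SC. The summed level of 6 macrophage markers stayed at or below 0.175 CPM in every cell of both groups. Of 4 Schwann cell markers, Mbp was detected in 11 of 16 nascent HCs (mean 38.6 CPM ± 46.4 SD, n = 16) and in 0 of 16 WT_P60 SCs. Of 4 endothelial markers, Pecam1 was detected in 9 of 16 WT_P60 SCs (mean 78.3 CPM ± 107 SD, n = 16) and in 1 of 16 nascent HCs, Cdh5 in 0 SCs and 1 nascent HC, Cldn5 in 1 SC and 0 nascent HCs, and Flt1 had no count. Of 4 markers of the stria vascularis, Kcnj10, a potassium channel that is also on the list of pillar and Deiters cell markers, was detected in 16 of 16 SCs (mean 425 CPM) and in 2 of 16 nascent HCs (4.64 CPM), whereas the other markers of that list were detected in no SC. Their part in the differences below was not tested.

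Of 11443 genes tested, 722 (6.31%) were higher and 167 (1.46%) were lower in nascent HCs where a call needed an adjusted p below 0.001 and an absolute log2 fold change above 2. These calls come from the quasi-likelihood F-test of edgeR with Benjamini-Hochberg adjustment, fitted to all 5 groups. Of the 722 higher genes, 541 (74.9%) had no count in any WT_P60 SC. Of the 167 lower genes, 71 (42.5%) had no count in any nascent HC. The filter on low counts took the cells of all 5 groups, so a gene could pass it without a count in a compared group. The share of such genes over all genes tested is not given here, so these shares describe the called genes only. The ranges of the groups did not overlap for 56 of the 167 lower genes (33.5%) and for 61 of the 722 higher genes (8.45%). Counted over all genes tested, regardless of calls, 100 genes (0.874%) lay in every nascent HC below every WT_P60 SC, and 67 (0.586%) lay above. Higher calls rested on few cells in part. In 63 of the 722 the gene was detected in 3 or fewer nascent HCs, and in 25 it was detected in a single cell, which was nascent HC 2 for 17 of them. With the added condition of detection in at least 8 cells of the higher group, 432 higher and 128 lower genes remained. The split also moved with the cells fitted and the genes tested: a fit of only the 2 groups compared gave 537 higher and 223 lower genes on the same 11443 genes, and 120 higher and 125 lower among the 7362 genes that passed the filter on those 2 groups alone. Over all genes the log2 fold change had a median of 0.34. Scaling by DESeq2's size factors put it at 0.12, and all fold changes are to be read against that shift.

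More genes were also detected in nascent HCs than in the SCs. Nascent HCs detected between 6856 and 9045 genes (median 8066) and WT_P60 SCs between 5542 and 7743 (median 6872). The means were 8006 ± 664 and 6780 ± 686 (SD, n = 16 each), a difference of 1226 (2-sided permutation test, 100000 resamples, p = 4e-05), and 10 of 16 nascent HCs lay above every SC. With every cell thinned to 4264780 reads the difference was 1278 (permutation p = 4e-05). Thinning levels the number of reads alone. The library series coincided with the group, so its part in this difference cannot be told apart.

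Espn, the actin bundler of stereocilia, had the smallest p of the higher genes. It lay between 225 and 966 CPM in nascent HCs (median 554), and it had no count in any SC, so that it was at least 1326-fold higher (adjusted p = 3.08e-28). Such bounds set the silent group at 3 reads per cell, which is 0.42 CPM in SCs and 0.278 CPM in nascent HCs on average. Cd63, a tetraspanin of endosomes and exosomes, ranged from 19.0 to 1848 CPM (median 900) against no count in SCs and was at least 2215-fold higher (adjusted p = 8.48e-18). Neither gene overlapped between the groups. Lrrc10b was found in every nascent HC at 166 to 1353 CPM (median 632) and with only 2 reads among all SCs, a ratio of 34829 with a 95% counting interval of 9642 to 287597 (adjusted p = 1.01e-13). Cbfa2t3, a transcriptional corepressor, ranged from 6.40 to 283 CPM (median 103) in nascent HCs against no count in SCs, at least 278-fold higher (adjusted p = 1.36e-13). Slc27a2, a very-long-chain acyl-CoA synthetase, reached 887 CPM (median 188), was detected in 15 of 16 nascent HCs and had 1 read in all SCs. Chrna9, Selenow, Mfng, Atoh1 and Myo7a complete the 10 leading higher genes and are described with their groups.

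The 10 leading lower genes were almost silent in nascent HCs. Cav1, the structural protein of caveolae, lay between 142 and 1222 CPM in SCs (median 584), and all nascent HCs together held 1 read, a ratio of 118576 with a 95% counting interval of 21282 to 4683499 (adjusted p = 2.06e-13). Its partner Cav2 lay between 491 and 2322 CPM in SCs (median 1191) against 3 reads in all nascent HCs (adjusted p = 5.54e-11). Both caveolins therefore separated every nascent HC from every SC. Gjb6, the gap junction protein connexin 30, lay between 170 and 4843 CPM in SCs (median 2187) and at no more than 1.59 CPM in nascent HCs (log2 fold change -12.97 ± 1.41 SE, adjusted p = 1.7e-10). Fibin lay between 61.8 and 1045 CPM in SCs and at no more than 0.747 CPM in nascent HCs (adjusted p = 4.71e-13), and Tmem221 between 140 and 739 CPM and at no more than 0.373 CPM (adjusted p = 2.18e-09). Fxyd6, a regulator of the sodium pump, fell as well, but 4 of the 16 SCs did not detect it, and the groups overlapped. Extl1, a glycosyltransferase of heparan sulfate synthesis, was at least 515-fold and Scube2 at least 357-fold lower, with no count in nascent HCs. Zp1 (0.136 to 2132 CPM in SCs, median 374) and D7Ertd443e (0.305 to 219 CPM, median 117) had 2 reads each among all nascent HCs.

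**Figure D1:**
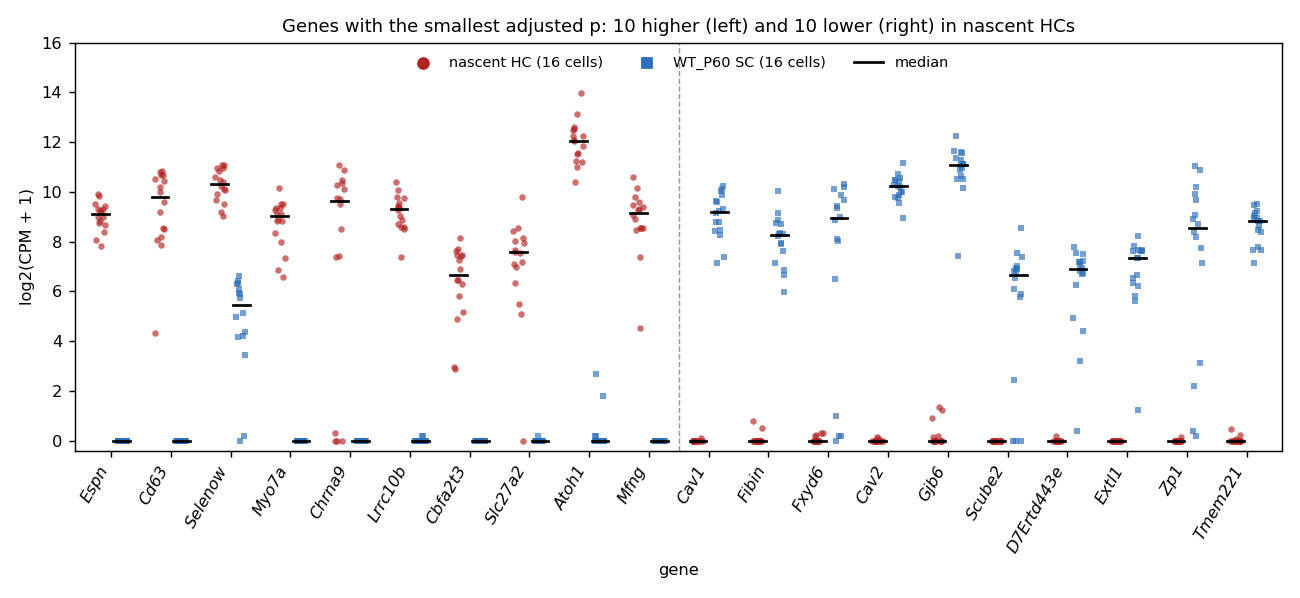
Levels of the 10 higher and the 10 lower genes with the smallest adjusted p in each of the 16 nascent HCs (circles) and 16 WT_P60 SCs (squares), on a log2(CPM + 1) axis, with the median as a bar. The SCs sit at 0 for most of the higher genes and the nascent HCs at 0 for most of the lower genes, while Chrna9 is at or near 0 in 4 nascent HCs.

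Since Atoh1 binds the E-box CAGCTG, the promoters of these leading genes were searched for those 6 letters, which read the same on both strands. The windows run from 250 bases before to 50 bases after the start site (RefSeq, GRCm38.p6). The motif occurred in 97 of 485 windows of higher genes (20.0%), in 22 of 118 of lower genes (18.6%), in 1208 of 8557 of all genes tested (14.1%) and in 5355 of 32851 of all windows (16.3%). Printed are the windows of Espn (chr4:152152340-152152639, minus strand), Chrna9 (chr5:65966874-65967173, plus strand) and Cbfa2t3 (chr8:122699060-122699359, minus strand), which rose and hold the motif, and of Fxyd6 (chr9:45369935-45370234, plus strand), which fell and holds it too. Capitals mark the motif, whose first base is at -201 in Espn, -13 in Chrna9, -146 and -104 in Cbfa2t3 and -1 in Fxyd6, counted from the start site. A match is a description of the letters and not a site in use. The windows of Cd63, Selenow, Lrrc10b, Slc27a2 and Atoh1 among the higher genes hold no match.
Espn: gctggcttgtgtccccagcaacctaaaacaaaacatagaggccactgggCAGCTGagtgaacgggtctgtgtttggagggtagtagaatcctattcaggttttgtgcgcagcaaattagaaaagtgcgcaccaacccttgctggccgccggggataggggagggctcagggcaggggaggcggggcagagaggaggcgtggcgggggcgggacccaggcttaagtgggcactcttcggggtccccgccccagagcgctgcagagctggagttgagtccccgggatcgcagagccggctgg
Chrna9: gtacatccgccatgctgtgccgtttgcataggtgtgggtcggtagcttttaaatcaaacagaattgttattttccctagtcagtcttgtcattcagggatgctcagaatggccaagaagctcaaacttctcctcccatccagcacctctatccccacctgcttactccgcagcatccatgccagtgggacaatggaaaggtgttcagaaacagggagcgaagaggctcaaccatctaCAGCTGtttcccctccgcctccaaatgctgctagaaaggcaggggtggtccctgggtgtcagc
Cbfa2t3: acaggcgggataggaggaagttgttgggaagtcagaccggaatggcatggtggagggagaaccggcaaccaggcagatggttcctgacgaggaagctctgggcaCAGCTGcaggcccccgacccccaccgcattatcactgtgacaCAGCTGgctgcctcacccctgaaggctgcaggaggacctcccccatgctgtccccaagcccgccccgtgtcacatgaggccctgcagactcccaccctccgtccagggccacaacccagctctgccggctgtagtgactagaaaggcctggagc
Fxyd6: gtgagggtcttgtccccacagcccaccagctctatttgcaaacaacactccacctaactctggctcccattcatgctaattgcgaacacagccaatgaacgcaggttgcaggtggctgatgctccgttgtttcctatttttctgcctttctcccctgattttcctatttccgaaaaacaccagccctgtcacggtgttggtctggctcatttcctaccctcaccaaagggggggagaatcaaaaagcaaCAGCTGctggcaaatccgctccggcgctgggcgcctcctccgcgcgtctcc

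Both induced factors rose. Atoh1 lay between 1341 and 15999 CPM in nascent HCs (median 4264) and at no more than 5.40 CPM in SCs, with a log2 fold change of 13.21 ± 1.36 (SE, adjusted p = 3.67e-12). Ikzf2 lay between 45.9 and 586 CPM (median 311) in nascent HCs and between 0 and 153 CPM (median 14.8) in SCs, with a log2 fold change of 3.17 ± 0.64 (adjusted p = 9.76e-05). The groups did not overlap for Atoh1, whereas for Ikzf2 13 of 16 nascent HCs lay above every SC. The counts do not separate the transgenes from the endogenous genes. The mean of Atoh1 was 4944 CPM in nascent HCs, 5464 CPM in the SCs of the same mouse line that failed to become HCs and 5494 CPM in OHC-like cells. The medians were 4264, 2496 and 5765 CPM, and the failing SCs ranged from 383 to 28402 CPM.

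Of 20 tested regulators of HC transcription and splicing, 9 rose and 0 fell, with a median log2 fold change of 2.72, or 1.69 with genes absent from a group at their bound, against 0.35 over all tested genes with a count in either group. This count and those of the lists that follow are to be read beside 6.31% higher and 1.46% lower over all tested genes. Barhl1, a homeodomain factor of HC survival, was detected in 15 of 16 nascent HCs (median 239 CPM, highest 605) and had no count in SCs, so it was at least 577-fold higher (adjusted p = 1.49e-09). Lhx3, a LIM factor of HCs, was at least 535-fold higher but reached 1912 CPM in nascent HC 2, without which its mean fell from 224 to 112 CPM. Gfi1, a zinc finger repressor downstream of Pou4f3, was at least 117-fold higher, with detection in 10 of 16 nascent HCs. Srrm4, the splicing factor of neural and HC microexons, was at least 209-fold higher, with detection in the same number of cells. Hes6, a Hes family member that opposes the other Hes repressors and singled out here after its values were seen, lay between 385 and 3608 CPM in nascent HCs (median 637) against at most 46.6 CPM in SCs. Its log2 fold change was 7.76 ± 1.59 (SE, adjusted p = 0.000125), and the groups did not overlap. Pou4f3, a factor that HCs need to survive, stood apart from these genes. It was called, yet 523 CPM came from nascent HC 2 and no other cell exceeded 1.4 CPM, and without nascent HC 2 its log2 fold change was 3.24 (adjusted p = 0.116). WT_P30 OHCs, the mature OHCs of the series, held a mean of 618 CPM.

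Of the 15 tested genes of the mechanotransduction complex and tip link other than Myo7a, 6 rose and 0 fell (median log2 fold change 5.82, 4.72 at the bounds). The shares over all tested genes were 6.31% higher and 1.46% lower. Myo7a, the motor at the upper tip link insertion and the marker that chose the cells, ranged from 94.5 to 1146 CPM in nascent HCs (median 517), without a count in any SC. Cib2, a calcium- and integrin-binding subunit of the channel complex, lay between 1175 and 3929 CPM (median 2210) in nascent HCs and between 0 and 389 CPM (median 97.7) in SCs, with a log2 fold change of 4.44 ± 0.62 (SE, adjusted p = 5.29e-08). Its ranges did not overlap. Tmie, which couples the channel to the tip link, was detected in 14 of 16 nascent HCs (median 51.6 CPM) and was at least 172-fold higher. Loxhd1, a stereociliary protein with PLAT domains, was at least 521-fold higher, but 8 of 16 nascent HCs detected it, and its mean of 219 CPM was 119 CPM without nascent HC 1. Lhfpl5, another channel subunit singled out after its values were seen, was detected in 12 of 16 nascent HCs (mean 1280 CPM ± 1378 SD) and in 2 of 16 SCs (highest 24.7 CPM), with an adjusted p of 1.35e-06. Tmc1, a pore subunit of the channel, had no count in any nascent HC or SC. A result of 0 of 16 cells allows a share of cells with a read of up to 18.8% and sets no limit on expression below detection, while WT_P30 OHCs held a mean of 1268 CPM and OHC-like cells 38.8 CPM. Cdh23, the upper part of the tip link, was detected in 8 of 16 nascent HCs and 3 of 16 SCs and was not called (log2 fold change 4.99 ± 1.38, adjusted p = 0.00594).

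Among 27 tested genes of the stereocilia core and cuticular plate, 11 rose and 0 fell (median log2 fold change 3.84, 3.4 at the bounds). Over all tested genes, 6.31% rose and 1.46% fell. Triobp, which bundles actin of the stereocilia rootlets, lay between 104 and 1925 CPM (median 782) in nascent HCs and between 0.267 and 231 CPM (median 88.7) in SCs, with a log2 fold change of 3.17 ± 0.57 (adjusted p = 1.73e-05). In 15 of 16 nascent HCs it lay above every SC. Lmo7, a protein of the cuticular plate, was at least 96.2-fold higher, and Elmod1, which HCs need to maintain stereocilia, at least 69.7-fold higher. Both were uneven: Lmo7 was detected in 7 of 16 nascent HCs and Elmod1 in 3, and without nascent HC 2 their means fell from 40.4 to 20.5 CPM and from 29.3 to 7.58 CPM. For 5 of the 11 genes the gene was detected in 3 or fewer nascent HCs. The examples Grxcr2 and Ptprq, both of the hair bundle and singled out after their values were seen, were detected in nascent HC 2 alone, at 327 and 271 CPM, and lost the call without it (adjusted p = 0.593 and 0.321). The same genes had means of 990 and 226 CPM in WT_P30 OHCs. Tmod1, which caps actin filaments, was not called: it lay between 30.1 and 499 CPM in nascent HCs and between 886 and 1902 CPM in SCs, and its adjusted p was 0.0184.

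Of 14 tested calcium buffers, sensors and pumps, 6 rose and 1 fell (median log2 fold change 2.87). The shares over all tested genes were 6.31% higher and 1.46% lower. Calb2, the buffer calretinin, had no count in SCs and was at least 4847-fold higher, with levels from 0 to 6319 CPM in nascent HCs (median 1785). Pvalb, the buffer parvalbumin, was at least 1709-fold higher and was detected in 10 of 16 nascent HCs (highest 2786 CPM). Ocm, the OHC buffer oncomodulin, reached 6481 CPM in nascent HC 5 and no more than 32.7 CPM in any other, so that its mean of 412 CPM was 7.56 CPM without that cell. S100a1 was the member that fell: it lay between 245 and 6916 CPM in nascent HCs (median 1672) and between 6572 and 15663 CPM in SCs (median 10837), with a log2 fold change of -2.32 ± 0.39 (adjusted p = 3.5e-06). It was below every SC in 15 of 16 nascent HCs.

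Synaptic genes gave the highest count of calls, 12 higher and 0 lower among 18 tested (median log2 fold change 9.06, 4.19 at the bounds). Over all tested genes, 6.31% were higher and 1.46% lower. The list joins the ribbon synapse, by which HCs drive afferent fibres, and the efferent synapse, by which the brainstem inhibits OHCs. Chrna9, a subunit of the acetylcholine receptor of the efferent synapse, was detected in 12 of 16 nascent HCs, reached 2177 CPM (median 787) and had no count in SCs, at least 1828-fold higher (adjusted p = 1.01e-13). Its partner Chrna10, singled out after its values were seen, was detected in 1 nascent HC only, nascent HC 2, at 119 CPM. Both subunits were present in WT_P30 OHCs, at means of 598 and 568 CPM. Rims2, a scaffold of the active zone, was at least 177-fold higher and detected in 13 of 16 nascent HCs (median 59.3 CPM). Snap25, a SNARE of vesicle fusion, was at least 344-fold higher and detected in 10 of 16. Cacna1d, the calcium channel that triggers release in HCs, was at least 18.9-fold higher, but its mean was 7.95 CPM ± 12.5 (SD, n = 16) in nascent HCs against 744 CPM in WT_P30 OHCs.

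Among 14 tested genes of the OHC lateral wall and potassium channels other than Slc26a5, 3 were higher and 0 lower (median log2 fold change 2.07). The shares over all tested genes were 6.31% higher and 1.46% lower. Slc26a5, the motor protein Prestin, whose absence chose the cells, was not quite at 0: nascent HCs 1, 2 and 6 held 8.7, 14.7 and 7.5 CPM, and the other nascent HCs and the SCs did not detect it. Means were 67.0 CPM in OHC-like cells and 1668 CPM in WT_P30 OHCs. Strip2 (at least 39.6-fold higher, detected in 7 of 16 nascent HCs), Kcnh2, an ERG potassium channel (at least 35.5-fold, 6 of 16), and Kcna10, a voltage-gated potassium channel (at least 24.3-fold, 3 of 16), were low in level, with means of 16.6, 14.9 and 10.2 CPM against 1236, 166 and 2116 CPM in WT_P30 OHCs. The mean of Kcna10 was 1.76 CPM without nascent HC 1, and its call was lost without the nascent HCs of series B.

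**Figure D2:**
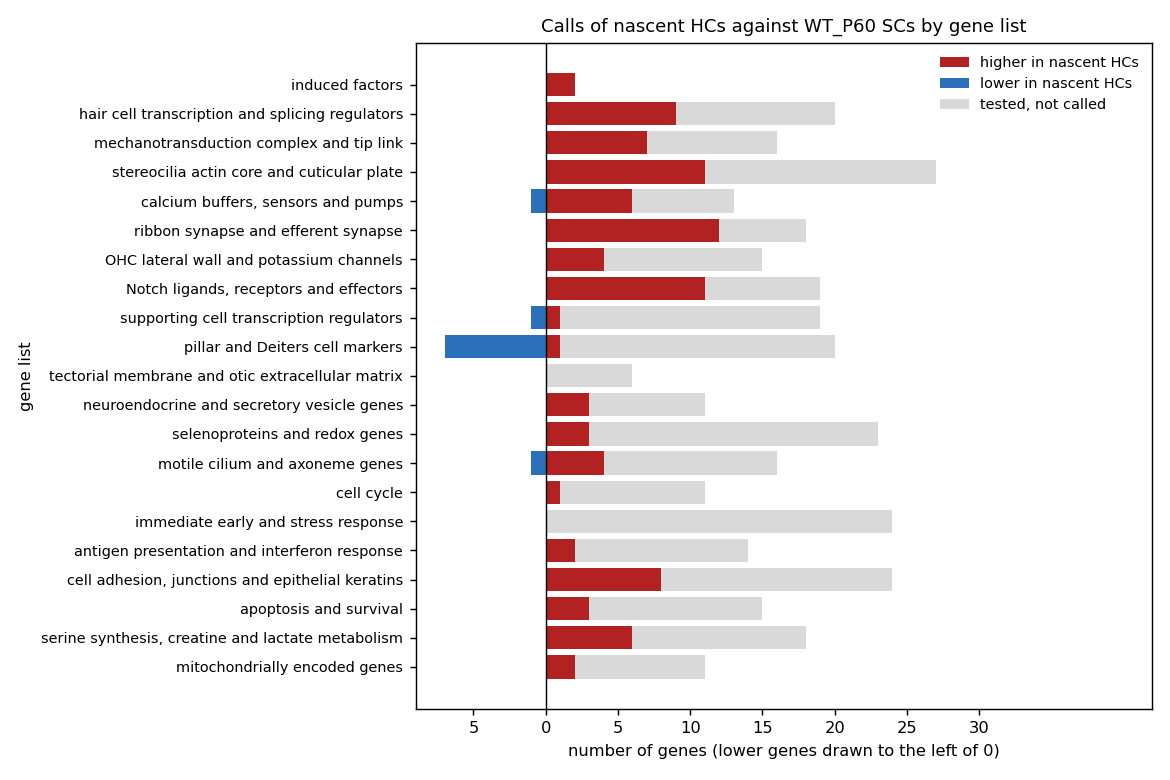
Number of tested genes of each gene list, Myo7a and Slc26a5 included, that were called higher (red, right of 0), called lower (blue, left of 0) or not called (grey) in nascent HCs against WT_P60 SCs. Synaptic genes have the most higher calls (12 of 18) and pillar and Deiters cell markers the most lower calls (7 of 27). Over all tested genes, 6.31% were called higher and 1.46% lower.

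In 17 of the 21 lists no member was called lower. These 17 lists were picked for holding no lower call, so the absence of such calls among their entries was fixed by that choice. Over all 11443 genes tested, 167 (1.46%) were called lower, and DESeq2 called 267 lower. Over the 274 tested entries of these lists, 19 were lower at an unadjusted p under 0.05, and DESeq2 called 6 of the 274 lower. The share of all tested genes at that unadjusted p is not given here, so the 19 are a description only.

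Many Notch pathway genes rose, both those that send and those that receive the signal. Of 19 tested, 11 rose and 0 fell, beside 6.31% higher and 1.46% lower over all tested genes. The median log2 fold change of the list was 9.55, or 5.15 at the bounds. Among the ligands, Jag2 lay between 17.8 and 1002 CPM in all 16 nascent HCs (median 246) and had no count in any SC, at least 685-fold higher (adjusted p = 7.41e-08). Dll1 was detected in 10 of 16 nascent HCs and was at least 165-fold higher (adjusted p = 7.92e-05). Jag2 and Dll1 were singled out after their values were seen. Dll3, a ligand that acts within the cell, lay between 89.9 and 1972 CPM (median 504) in nascent HCs against 2 reads in all SCs (adjusted p = 7.95e-10), and Dner, a transmembrane protein related to the ligands, was detected in 11 of 16 nascent HCs and had a mean at least 341-fold higher. Jag1, the ligand that SCs themselves carry, had means of 95.7 CPM ± 110 (SD) in nascent HCs and 103 CPM ± 74.6 in SCs and was not called (log2 fold change -0.11 ± 0.96, adjusted p = 0.986). Mfng, the glycosyltransferase that tunes the receptor for its ligands, ranged from 21.9 to 1535 CPM (median 573) in nascent HCs without a count in SCs, at least 1434-fold higher (adjusted p = 5.54e-11). Among the effectors, Heyl was detected in 15 of 16 nascent HCs (median 332 CPM, highest 1600) and in 0 of 16 SCs, at least 933-fold higher (adjusted p = 1.76e-09). Hes5 and Hey2, singled out after their values were seen, were at least 25.6-fold and 47.4-fold higher, at means of 10.7 and 19.9 CPM. Hey1, singled out likewise, was detected in 9 of 16 nascent HCs and 3 of 16 SCs and was not called (adjusted p = 0.0427). Hes1, detected in 13 of 16 nascent HCs and 16 of 16 SCs, was level. Its means were 86.0 ± 103 (SD) and 84.5 ± 76.0 CPM (log2 fold change 0.03 ± 0.94, adjusted p = 0.999). In SCs that failed to become HCs the mean of Heyl was 692 CPM and that of Dll3 27.3 CPM, against 392 and 652 CPM in nascent HCs.

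**Figure D3:**
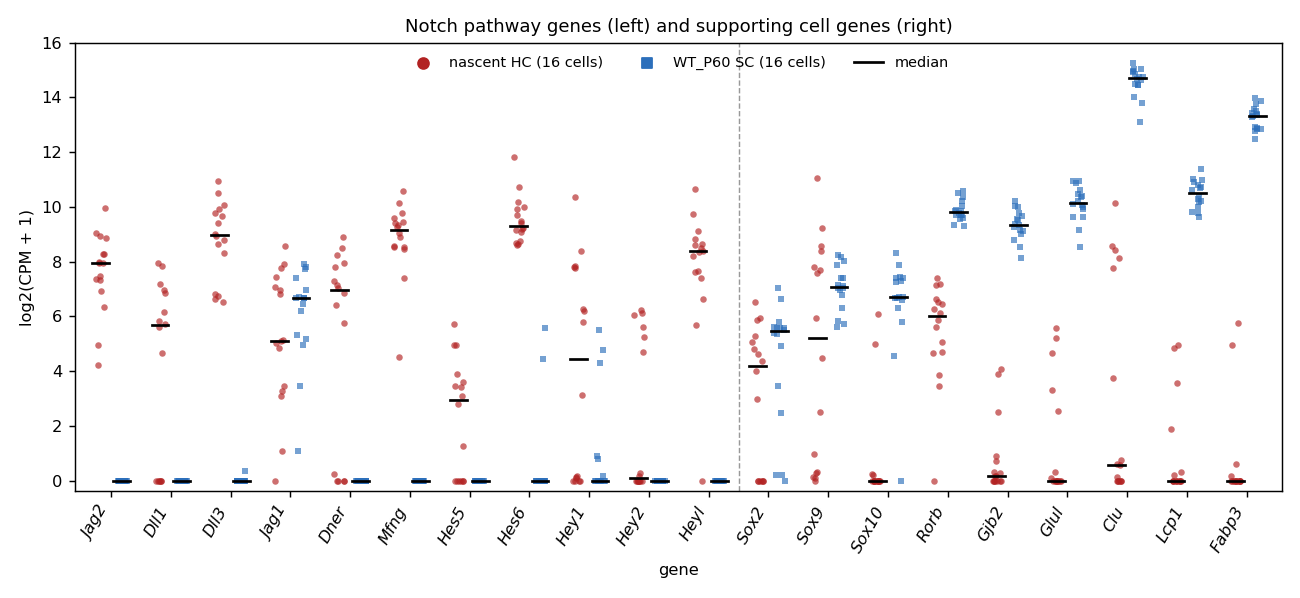
Levels of Notch pathway genes (left of the dashed line) and SC genes (right) in each nascent HC (circles) and each WT_P60 SC (squares) as log2(CPM + 1), with the median as a bar. Jag2, Dll3, Mfng and Hes6 are at or near 0 in nearly all SCs and above 0 in all nascent HCs, whereas Rorb, Gjb2, Glul, Clu, Lcp1 and Fabp3 are lower in every nascent HC than in any SC.

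Of 20 tested SC transcription regulators, 1 rose and 1 fell (median log2 fold change -0.9), beside 6.31% higher and 1.46% lower over all tested genes. Rorb, a nuclear receptor, fell from 968 ± 275 to 67.4 ± 50.8 CPM (SD, n = 16 each; log2 fold change -3.84 ± 0.64, adjusted p = 3.61e-06) and did not overlap. Pax2, an otic paired-box factor, was detected at low level in 9 of 16 nascent HCs (median 5.3 CPM) and in no SC. Sox2, the SC and progenitor factor, was detected in 10 of 16 nascent HCs and 13 of 16 SCs, at means of 23.2 ± 27.1 and 40.1 ± 35.6 CPM (adjusted p = 0.84). Sox9 was detected in 11 of 16 nascent HCs and 16 of 16 SCs, and its mean of 259 CPM in nascent HCs was 134 CPM without nascent HC 13, against 151 CPM in SCs. Its log2 fold change of 0.78 ± 1.00 (SE, adjusted p = 0.806) was -0.17 without that cell. Sox10 was detected in 2 of 16 nascent HCs and 15 of 16 SCs without a call (log2 fold change -4.36 ± 1.52, adjusted p = 0.0431). Fgfr3, whose promoter drives the Cre, stayed detected in 16 of 16 nascent HCs, at 318 ± 240 CPM against 751 ± 424 CPM in SCs (adjusted p = 0.527). Prox1, another SC marker, went the other way without a call. It was detected in 16 of 16 nascent HCs and 6 of 16 SCs, at means of 60.0 and 33.4 CPM. Gata3 and Eya1, early otic factors, were detected in every cell of both groups, with log2 fold changes of -0.06 ± 0.42 and -0.69 ± 0.68.

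Of 27 tested markers of pillar and Deiters cells, 7 fell and 1 rose, beside 1.46% lower and 6.31% higher over all tested genes. The median log2 fold change of the markers was -2.2. Those that fell were Gjb6, Fibin, Fxyd6, Lcp1, Gjb2, Glul and Clu, the last 3 of which are named because they belong to this count. Lcp1, the actin bundler plastin 2, lay between 800 and 2641 CPM in SCs (median 1451) and at no more than 30.2 CPM in nascent HCs, with a log2 fold change of -8.38 ± 1.44 (SE, adjusted p = 6.53e-06). Gjb2, or connexin 26, fell from 281 to 1186 CPM in SCs to at most 15.9 CPM (adjusted p = 1.52e-05), and Glul, the glutamine synthetase that clears glutamate, from 372 to 1991 CPM to at most 46.4 CPM (adjusted p = 0.000297, a call that was lost without the nascent HCs of library series B, D or E). Clu, the secreted chaperone clusterin, lay between 8802 and 39124 CPM in SCs (median 26560) and between 0 and 1122 CPM in nascent HCs (median 0.492), with a log2 fold change of -7.45 ± 1.49 (adjusted p = 8.73e-05). None of these 4 genes overlapped between the groups. Fabp3, the fatty acid carrier, singled out after its values were seen, lay between 5649 and 16316 CPM in SCs and at no more than 53.4 CPM in nascent HCs (log2 fold change -10.92 ± 1.75, adjusted p = 1.5e-06). Skp1a, an adaptor of SCF ubiquitin ligases and singled out likewise, fell from 22405 ± 4077 to 4136 ± 2218 CPM (log2 fold change -2.44 ± 0.35, adjusted p = 8.53e-08) without overlap. Slc1a3, the glial glutamate transporter, was the member that rose, with no count in SCs and detection in 5 of 16 nascent HCs (highest 846 CPM, in nascent HC 3, without which the mean of 115 CPM was 66.4 CPM). Sparc, a secreted matrix protein, was not called (adjusted p = 0.464): 15 of 16 nascent HCs lay below every SC, at no more than 481 CPM against 3410 to 8851 CPM, and nascent HC 7 held 18109 CPM. Of 6 tested genes of the tectorial membrane and otic matrix none was called at the thresholds of the edgeR test. There, 0 members were higher and 2 lower at an unadjusted p under 0.05, and DESeq2 called none. The share of all tested genes at that unadjusted p is not given here. Otog, or otogelin, lay below every SC in 15 of 16 nascent HCs, and its mean of 52.2 CPM was 6.82 CPM without nascent HC 7 against 583 CPM in SCs (adjusted p = 0.0819).

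Outside the classical HC and SC lists, several enzymes and structural genes moved. The counts of these lists are to be read beside 6.31% higher and 1.46% lower over all tested genes. Of 23 tested selenoprotein and redox genes, 3 rose, 0 fell and 20 were not called. Their median log2 fold change was -0.46, against 0.35 over all tested genes with a count in either group. Selenow lay between 521 and 2192 CPM in nascent HCs (median 1280) and between 0 and 97.4 CPM in SCs (median 43.5), with a log2 fold change of 4.93 ± 0.44 (SE, adjusted p = 1.89e-14), and Selenom between 701 and 4105 CPM (median 2539) against 0 to 99.6 CPM (log2 fold change 5.88 ± 1.11, adjusted p = 3.24e-05). Neither overlapped. Mt1, a metallothionein, was called on 6 cells, of which nascent HC 13 held 8851 CPM, and its mean of 655 CPM was 109 CPM without that cell. Prdx6, a peroxiredoxin, lay in every nascent HC (119 to 1072 CPM) below every SC (1500 to 4868 CPM), but its adjusted p of 0.00133 missed the threshold. Of 18 tested genes of serine, creatine and lactate metabolism, 6 rose and 0 fell (median log2 fold change 1.13). Psph, the last enzyme of serine synthesis, lay between 470 and 5269 CPM (median 2394) in nascent HCs and between 0 and 112 CPM in SCs (log2 fold change 6.89 ± 1.42, adjusted p = 0.000129), and Ldhb, a lactate dehydrogenase subunit, between 544 and 4373 CPM (median 1960) against 0 to 457 CPM (log2 fold change 4.62 ± 0.76, adjusted p = 2.84e-06). Both separated the groups. Ckmt1, the mitochondrial creatine kinase, was at least 497-fold higher and detected in 15 of 16 nascent HCs. Ckmt1 and the HC gene Strc overlap on opposite strands, and whether the counting used strand is not stated.

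Of 11 tested mitochondrially encoded genes, 2 rose and 0 fell (median log2 fold change 1.55). mt-Nd3 rose from 1.79 ± 0.875 to 65.8 ± 35.6 CPM (SD, n = 16 each) without overlap, and mt-Nd6 from 154 ± 53.1 to 801 ± 465 CPM; both encode subunits of respiratory complex I, and mt-Nd6 overlaps mt-Nd5 on the other strand. mt-Cytb, a subunit of complex III, was higher in 14 of 16 nascent HCs than in any SC, with a log2 fold change of 1.80 ± 0.40 that fell short of the threshold. The share of counts on mitochondrial genes lay between 1.41% and 8.44% in nascent HCs and between 1.3% and 2.59% in SCs.

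Genes of other epithelial and neural programs also appeared. Their counts are to be read beside 6.31% higher and 1.46% lower over all tested genes. Of 24 tested genes of adhesion, junctions and keratins, 8 rose and 0 fell (median log2 fold change 1.49). Anxa4, a calcium-dependent membrane-binding annexin, lay between 395 and 6436 CPM (median 2968) in nascent HCs and between 0 and 236 CPM (median 91.2) in SCs (log2 fold change 5.20 ± 0.78, adjusted p = 2.61e-07). Krt8, a keratin of simple epithelia singled out after its values were seen, lay between 395 and 7277 CPM (median 1898) against 0 to 213 CPM (log2 fold change 6.72 ± 1.40, adjusted p = 0.000159). Neither overlapped. Nectin1, an adhesion molecule at HC and SC contacts, was at least 54.3-fold higher (detected in 13 of 16 nascent HCs), and Cdh2, or N-cadherin, at least 119-fold higher but detected in 5 of 16. Of 11 tested neuroendocrine genes 3 rose: Rab3b, a GTPase of secretory vesicles (at least 694-fold, detected in 15 of 16 nascent HCs), Vgf, a neuropeptide precursor (at least 35.3-fold, 10 of 16), and the granin Chgb (at least 190-fold, 6 of 16, mean 79.9 CPM and 39.7 CPM without nascent HC 2). Of 17 tested genes of the motile cilium and axoneme 4 rose and 1 fell. Cfap161 was detected in all 16 nascent HCs (30.1 to 549 CPM, median 62.4) with 1 read in all SCs (adjusted p = 5.51e-09), and Ccdc40 and Spag6l were each detected in 8 of 16 and in no SC. Drc1, a part of the dynein regulatory complex, fell from a median of 227 CPM in SCs to at most 1.74 CPM (adjusted p = 1.64e-06). Odf3l2, named for outer dense fibres and singled out after its values were seen, fell from 7024 ± 1304 to 155 ± 181 CPM without overlap (log2 fold change -5.50 ± 0.89, adjusted p = 6.33e-06).

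Calls among cell cycle, stress, immune and apoptosis genes are to be read against the 6.31% of all tested genes that were called higher. Of 11 tested cell cycle genes 1 rose: Cdkn1c, an inhibitor of cyclin-dependent kinases, at a median of 186 CPM (highest 2214) against at most 8.81 CPM in SCs (log2 fold change 9.43 ± 1.68, adjusted p = 1.94e-05). Mki67, a marker of cycling cells, had no count in either group. Of 24 tested immediate early and stress genes none was called at the thresholds of the edgeR test. At an unadjusted p under 0.05, 7 were higher and 2 lower, and DESeq2 called 0 higher and 1 lower. Over all 11443 genes tested DESeq2 called 887 higher and 267 lower, and the share at that unadjusted p is not given here. Fos, a subunit of AP-1, had means of 652 ± 1330 CPM in nascent HCs (358 CPM without nascent HC 13) and 2996 ± 2632 CPM in SCs (adjusted p = 0.227). Of 14 tested genes of antigen presentation and the interferon response 2 rose, Ly6e (detected in 15 of 16 nascent HCs, median 1902 CPM, adjusted p = 7.43e-05) and the transcription factor Irf1 (7 of 16, at least 94.0-fold higher, mean 39.5 CPM and 25.7 CPM without nascent HC 16). Of 15 tested genes of apoptosis and survival 3 rose, among them Bbc3, the p53 target Puma, in 9 of 16 nascent HCs (median 11.7 CPM), and Faim2, an inhibitor of Fas-mediated death, in 2 of 16, whose mean of 8.23 CPM was 3.38 CPM without nascent HC 12.

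The nascent HCs were alike in some genes and split in others. Espn varied by a few fold among the 16 cells, but Calb2 was high in nascent HCs 1, 2, 4, 5, 6, 8, 9, 10 and 12, at 1144 to 6319 CPM, and lay at or below 119 CPM in the other cells. Lhfpl5 was at 224 to 4115 CPM in the same cells and at 581 CPM in nascent HC 13, and at or below 2.3 CPM in the rest. Chrna9 was at or above 726 CPM in the cells with Calb2, at 359, 170 and 166 CPM in nascent HCs 11, 14 and 15, and at or below 0.3 CPM in nascent HCs 3, 7, 13 and 16. Krt7, a keratin of ducts and simple epithelia that had no count in SCs and was singled out after its values were seen, showed the opposite order. It lay between 2008 and 8305 CPM in nascent HCs 3, 7, 11, 14, 15 and 16 and at or below 474 CPM in the other cells. Slc1a3 was at 75.4 to 846 CPM in nascent HCs 3, 7, 14, 15 and 16 and at or below 1 CPM elsewhere, and Cdh2 was at 72.3 to 270 CPM in nascent HCs 7, 11, 14, 15 and 16 and at or below 0.2 CPM elsewhere. Gpx2, a glutathione peroxidase that every SC held at 4852 CPM or more, was at or below 26.5 CPM in nascent HCs 3, 7, 9, 14, 15 and 16 and between 1422 and 34374 CPM in the others. These levels did not follow the library series exactly. Of the 6 cells with high Krt7, nascent HC 3 was the single cell of series A, nascent HC 7 was in series B, nascent HC 11 in D, and nascent HCs 14, 15 and 16 in E, and series B, D and E each held cells of high and of low Calb2. The part of the series in these levels was not tested.

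**Figure D4:**
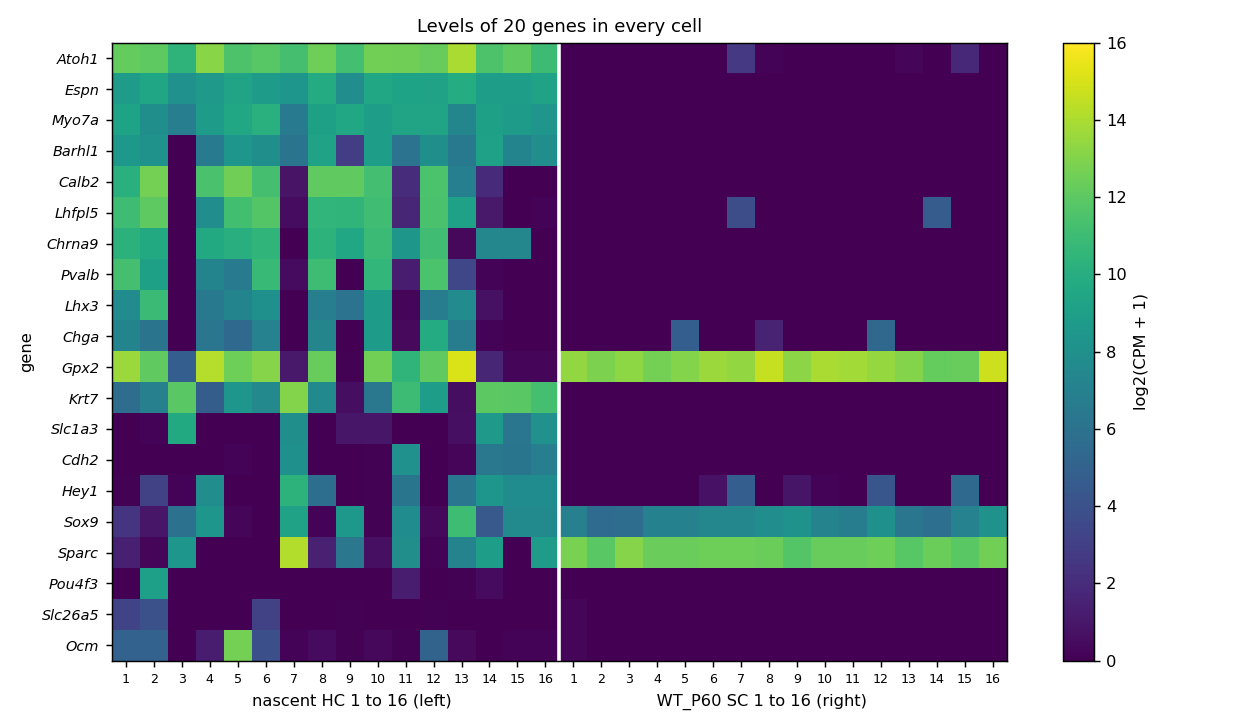
Levels of 20 genes in nascent HCs 1 to 16 (left of the white line) and WT_P60 SCs 1 to 16 (right), as log2(CPM + 1) by colour. Atoh1, Espn and Myo7a are present in all nascent HCs, Calb2, Lhfpl5 and Chrna9 are high in a shared set of cells, Krt7, Slc1a3 and Cdh2 are high mostly in other cells, and Pou4f3 is high in nascent HC 2 alone.

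Single cells stood apart in particular genes. Nascent HC 2 detected 72 of the 98 genes of the HC lists, the most of the 16, and held the highest Pou4f3, Lhx3 and Slc26a5 as well as Grxcr2, Ptprq and Chrna10. Nascent HC 13 had the highest Atoh1 (15999 CPM), Gpx2 (34374 CPM) and Mt1, with 26% of its reads on its 10 most abundant genes against 6.51% to 18.8% in the others. Nascent HC 7 had the lowest Myo7a (94.5 CPM) and the highest Krt7, Sparc and Clu. Without nascent HC 2, 7 or 13 the calls numbered 662 higher and 166 lower, 699 and 195, and 708 and 166.

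Set against the other induced cells, nascent HCs gave more calls against SCs that failed to become HCs than against OHC-like cells. All these comparisons share the nascent HCs, and the groups differ in size. Failing SCs came mostly from library series A and C, whereas nascent HCs and OHC-like cells came mostly from series B, D and E. The part of the series in these numbers of calls was not tested. Against failing SCs, 108 genes (0.944%) were higher and 46 (0.402%) lower in nascent HCs. Cbfa2t3 led this comparison, with 117 CPM in nascent HCs and no count in failing SCs, as in WT_P60 SCs, and Chrna9 followed with 768 against 0.0273 CPM. The means of Gjb6 and Cav2 in failing SCs were 237 and 65.4 CPM, against 2222 and 1212 CPM in WT_P60 SCs. These means join failing SCs with and without the genes. Gjb6 was detected in 10 of 15 failing SCs (median 62.2 CPM) and Cav2 in 7 of 15 (median 0 CPM). No nascent HC exceeded 1.59 CPM of Gjb6 or 0.124 CPM of Cav2. Against OHC-like cells, 1 gene (0.00874%) was higher and 8 (0.0699%) were lower. The higher gene was Faim2, detected in 2 nascent HCs. Slc26a5, which chose the cells, and Tmc1, which was detected in 2 of 11 OHC-like cells, were among the lower ones.

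Counted cell by cell, each nascent HC detected between 302 and 524 of the 722 called-higher genes and between 17 and 27 of the 167 called-lower genes, against 38 to 47 and 99 to 137 in WT_P60 SCs, the groups from whose contrast these genes were taken. The groups differed in the genes detected over the whole table, with medians of 4777 in WT_P30 OHCs (3630 to 5431), 8488 in OHC-like cells and 6977 in failing SCs beside 8066 in nascent HCs and 6872 in WT_P60 SCs, so these numbers are given side by side and are not a comparison at equal detection. In cells that did not enter the contrast, failing SCs detected 119 to 309 of the higher and 31 to 68 of the lower genes, OHC-like cells 258 to 508 and 14 to 66, and WT_P30 OHCs 170 to 265 and 36 to 52. Of the 722 higher genes, 228 were detected in none of the 17 WT_P30 OHCs and 9 in none of the 11 OHC-like cells. Espn and Myo7a are among those that mature OHCs shared, at means of 633 and 551 CPM, while Mfng and Slc27a2 had no count in WT_P30 OHCs and Cd63, Anxa4 and Cbfa2t3 had means at or below 0.0159 CPM there. Over the HC lists, nascent HCs detected 31 to 72 of 98 genes (median 46), WT_P60 SCs 21 to 29 (median 26) and WT_P30 OHCs 52 to 71 (median 59). Every nascent HC lay above every SC in this count, which includes Myo7a and Slc26a5.

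**Figure D5:**
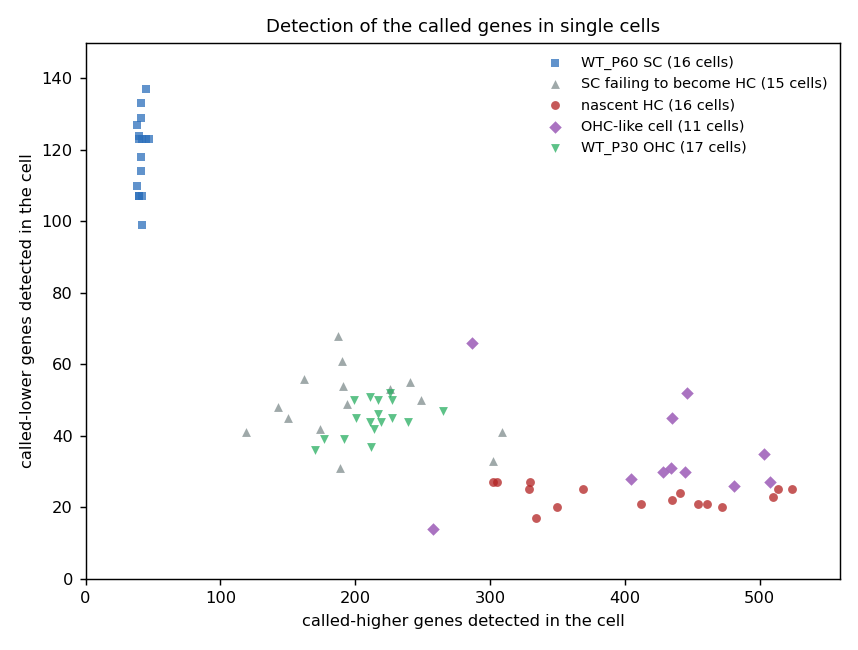
Number of the 722 called-higher genes (horizontal axis) and of the 167 called-lower genes (vertical axis) detected at 1 CPM or more in each cell of the 5 groups. Nascent HCs lie at 302 to 524 and 17 to 27, OHC-like cells overlap them on both axes, and WT_P30 OHCs and most failing SCs lie between them and the WT_P60 SCs on the horizontal axis.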

How the data were processed

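Single-cell RNA-Seq libraries (Smart-Seq HT, tagmentation) of hand-picked cochlear cells were analysed. Per the methods of the study and the submitters' processing notes, the authors checked reads with FastQC 0.11.9, trimmed them with Trimmomatic 0.39, aligned them to GRCm38 with HISAT2 2.1.0 and counted reads with HTSeq 0.10.0. The deposited values are raw counts per gene and cell, neither normalized nor pooled. Strand setting and annotation release are not given in the sources used here, so values of overlapping genes are uncertain. There were no molecular identifiers, so intervals and floors cover counting error only.

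From the deposited counts, without the WPRE row (0.0254% of counts), all 5 groups were fitted with edgeR 4.0.16 in R 4.3.3 (TMM, minimum count of 10 by group, quasi-likelihood F-test, Benjamini-Hochberg). SE is the log2 fold change divided by the square root of F. The fit was tested on simulated data. DESeq2 1.42.0, limma 3.58.1 and other settings were tried. Correlations of log2(CPM + 1) between replicates lay between 0.45 and 0.68 in nascent HCs and between 0.49 and 0.62 in WT_P60 SCs, and no pair of cells stood out as a repeat of one library. Replicate numbers name cells and pair nothing.

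Members and gene lists were chosen with earlier results of these data known. Named genes were Atoh1, Ikzf2, Myo7a and Slc26a5, the 10 genes called with the smallest p in each direction, and from each list up to 4 called members a direction and the 3 most abundant members not called, which are partly given as counts alone. Some genes that this rule names are not reported here. Other genes are marked as singled out after their values were seen or are cell type markers. Overlaps between genes were taken from GENCODE M21. Permutation tests and descriptions were computed in python 3.11.15 (scipy 1.17.1, pandas 2.3.3, numpy 2.4.6) and drawn in matplotlib 3.10.9.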

Additional observations from a re-analysis of the deposited data

How the results depend on the processing

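No named gene that was called changed direction under any of the alternatives that tested it. Leaving out each of the 32 cells in turn, a step chosen after the data were seen, kept the number of genes called between 647 and 709 higher and between 153 and 195 lower. Of the 90 named genes that were called, 21 lost the call with limma-trend, 13 with only the 2 groups compared on the same genes, 9 with the replicate block, 4 without series E and 88 with summed counts, and without nascent HC 2 Pou4f3, Grxcr2 and Ptprq lost it. With the filter on the 2 groups alone, only 46 of the 90 were tested, of which 45 kept the call and 1 lost it. The rest passed the reported filter only with cells of the other groups. Numbers of calls moved by over 1.5 times in some settings. Against 722 higher and 167 lower genes (81.21% higher), a fit of only the 2 groups compared gave 120 and 125 (48.98% higher, 7362 genes tested), and that fit with the 11443 genes of the reported test gave 537 and 223 (70.66%). No filter on low counts gave 889 and 569 among 29042 genes (60.97%), limma-trend 754 and 443 (62.99%), DESeq2 887 and 267, and thresholds of 0.05 for the adjusted p and 1 for the log2 fold change gave 1184 and 391. Counts summed per group and library series left 2 higher and 0 lower genes (100%), with 1 summed library for the SCs. Without the nascent HCs of series B the lower genes numbered 102, and detection in at least 8 cells of the higher group, a condition chosen after the data were seen, left 432 higher genes. The replicate number as a block gave 641 higher and 253 lower genes (71.7%). Deviations of cells with the same number correlated at -0.014 to 0.024 over 16 pairs, 0 of them above 0.1, and 2 correlated best with their own number, so that the numbers pair no cells. The cause of these shifts was not tested. Genes not called could change sign. Sox9, at 0.78 in the reported fit, was at -2.95 with limma-trend, -0.59 with the replicate block, -0.06 without series D and between -0.17 (without nascent HC 13) and 0.86 with single cells left out, and Jag1, at -0.11, was at 0.18 without series D. The difference in genes detected kept its direction and passed the test in every setting, between 1025 at 10 CPM and 1618 at 1 count. A log2 fold change of a gene absent from a group depends on the prior count and is therefore given as a bound, which deeper libraries could raise.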
